A study of Mus musculus with 15 samples.

Results

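The dopamine receptors and DARPP-32 were followed in the mouse prefrontal cortex (PFC) by RNA sequencing of single cells. The 6 genes were taken by symbol from the gene table of the series, out of 26145 listed genes: the receptors Drd1a, Drd2, Drd3, Drd4 and Drd5, and Ppp1r1b, which encodes DARPP-32. All mice were male C57BL/6N. In the P60 mice (adults, labelled as 8 to 10 weeks old), a jugular catheter delivered cocaine or, in the controls, saline when the mouse pressed a lever (intravenous self-administration, IVSA), after food training. Tissue was taken at the end of maintenance (cocaine libraries 1 and 4, saline libraries 2 and 3), after 48 h of withdrawal (cocaine libraries 6 and 8, saline libraries 5 and 7) or after 15 days of withdrawal (cocaine libraries 9 and 10, saline libraries 11 and 12). Each P60 library pooled 2 mice. The paper places catheter implantation at P60 and the first tissue after 15 days of maintenance. By that schedule the mice were older than P60 when tissue was taken, and the periods differ in age. The 3 P21 libraries came from untreated mice at weaning (labelled as 3 weeks old), for which the methods give 4 mice without assigning them to libraries, so some P21 libraries may share mice. P21 mice had no catheter or lever training, so age and this procedure cannot be told apart in the comparison with P60 saline mice.

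In the textbook scheme, dopamine acts through receptors of opposite classes. D1-class receptors (Drd1a, Drd5) couple to stimulatory G proteins and raise cAMP, while D2-class receptors (Drd2, Drd3, Drd4) couple to inhibitory G proteins and lower it. DARPP-32 sits downstream: phosphorylated by protein kinase A, it inhibits protein phosphatase 1, which prolongs the action of the kinase. The pathway is best known from the projection neurons of the striatum. In the PFC, dopamine fibres from the midbrain reach mainly the deep layers, and D1 signalling there is known for its part in working memory.

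The deposited annotation placed 24822 P60 and 10538 P21 cells in classes and in L2 clusters, of which 26 are excitatory (Exc_1 to Exc_26). Retained cells held 8375172 to 42892922 UMIs (transcript molecules) per P60 library and 19765973 to 40972771 per P21 library. The median excitatory neuron held 11810 to 16487 UMIs in a P60 library and 7345 to 11457 in a P21 library. Of the 10538 P21 cells, 459 had different classes in the 2 annotation columns, against 33 of the P60 cells. Any pair of libraries shared at most 40 cell barcodes, and no library repeated another. One label field names the nucleus accumbens, although titles and methods name the PFC. Excitatory neurons made up 58.2% and inhibitory neurons 4.80% of the P60 cells. In excitatory neurons Isl1, a factor of striatal D1 projection neurons, was at 0 in 13 of 15 libraries. Adora2a, the receptor of their D2 counterparts, was at 0 to 0.409 CPM. The 10 striatal markers summed to 178 to 190 CPM in P21 libraries and 112 to 179 CPM in P60 libraries, where library 2 was highest. Pde10a led at 50.8 to 87.7 CPM. In inhibitory neurons the same list summed to 780 to 1425 CPM at P21 and 152 to 711 CPM at P60, led in its highest library by Tac1. There too Isl1 was at 0 in 13 of 15 libraries, and Adora2a was at 0 to 6.87 CPM. In both classes Isl1 was above 0 in P21 libraries only. The part of these age differences in the P21 comparison was not tested. Levels are given as CPM, the UMIs of a gene per 1000000 UMIs of a cell type in 1 library with mitochondrial and ribosomal protein genes left out. Means and SDs use the libraries in which that type had 10 cells or more.

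Over all libraries, Ppp1r1b gave 7648 UMIs in 4911 cells, Drd1a 2017 UMIs in 1746 cells, Drd5 346 UMIs, Drd2 147 UMIs and Drd4 53 UMIs. Drd3 gave no UMI in any retained cell, which allows up to 0.0158 CPM in P60 excitatory neurons (3 UMIs over the group, covering counting error only). In the mm9 annotation of the deposited counts, Drd1a lies on chromosome 13 at 54146555 to 54151027 on the minus strand in 2 exons. Drd5 lies on chromosome 5 at 38710748 to 38713549 on the plus strand in a single exon, with Gm16766 annotated over it on the other strand. Ppp1r1b lies on chromosome 11 at 98209718 to 98219110 on the plus strand with 7 transcript models, and 1700003D09Rik overlaps its 3' end on the other strand. Whether the counting used the strand is not given in the sources used here, so reads of Ppp1r1b or Drd5 and of these antisense partners may not be told apart, nor are the transcript models of Ppp1r1b.

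Promoter windows are printed for the D1-class receptors, whose levels were both higher at P21, and for Drd3, which was not detected. Each runs from 250 bases before to 50 bases after a RefSeq start (GRCm38.p6, a later build than that of the counts), and capitals mark the GC box GGGCGG or its complement CCGCCC. Drd1 is the RefSeq symbol of Drd1a, and the more upstream of its 2 starts is shown, at chr13:54055609-54055908 on the minus strand. The Drd5 window is chr5:38319259-38319558 and the Drd3 window is chr16:43761971-43762270, both on the plus strand.
Drd1: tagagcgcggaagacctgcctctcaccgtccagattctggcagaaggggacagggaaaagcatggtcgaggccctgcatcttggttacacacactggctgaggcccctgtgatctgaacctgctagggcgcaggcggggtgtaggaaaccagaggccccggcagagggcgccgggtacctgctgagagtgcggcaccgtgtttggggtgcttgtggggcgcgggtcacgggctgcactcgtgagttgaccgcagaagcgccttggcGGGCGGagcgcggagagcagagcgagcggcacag
Drd5: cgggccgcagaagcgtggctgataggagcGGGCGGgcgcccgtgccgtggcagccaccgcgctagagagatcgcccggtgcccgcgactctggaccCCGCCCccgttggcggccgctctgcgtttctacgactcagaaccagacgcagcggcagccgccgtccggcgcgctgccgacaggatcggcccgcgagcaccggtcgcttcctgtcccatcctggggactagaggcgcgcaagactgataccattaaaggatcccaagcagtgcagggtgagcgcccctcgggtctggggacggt
Drd3: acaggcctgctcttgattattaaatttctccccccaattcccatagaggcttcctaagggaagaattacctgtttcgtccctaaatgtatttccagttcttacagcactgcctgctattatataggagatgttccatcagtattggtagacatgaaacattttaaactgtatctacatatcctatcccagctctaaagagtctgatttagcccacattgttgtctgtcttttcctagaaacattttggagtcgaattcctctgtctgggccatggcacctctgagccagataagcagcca
The Drd1 window held 1 GC box and 23 CpG dinucleotides with 65.7% G and C, and the Drd5 window held 2 GC boxes and 38 CpG dinucleotides with 70.3% G and C. The Drd3 window held no GC box and 2 CpG dinucleotides with 42.0% G and C. The windows of the scarce Drd2 and Drd4, not printed, held 2 and 3 GC boxes and 23 and 15 CpG dinucleotides, and the other Drd1 start held 1 GC box and 6. A GC box is found in 11714 of 32851 promoter windows (35.7%). The full cAMP response element TGACGTCA was in none of the windows of the 5 receptors and in 588 of all windows (1.79%), and its core TGACG or CGTCA was also absent from them and present in 20.8% of all windows. RefSeq windows matched 5 of the 6 genes, and Ppp1r1b is named only.

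Drd1a, the D1 receptor, had 91.8% of its 1370 P60 UMIs in excitatory neurons, which are 58.2% of the cells, and 5.18% in inhibitory neurons, which are 4.80%. As a level the ranges over libraries overlapped: the excitatory class was at 7.10 ± 1.70 CPM and the inhibitory class at 5.396 ± 4.54 CPM (SD, n = 12 libraries), or 6.64 and 7.53 CPM with UMIs pooled over libraries. At P60 it was highest in Exc_12 at 27.8 ± 7.69 CPM (SD, n = 12 libraries; lowest 17.3, median 27.6, highest 38.1), followed by Exc_13 at 22.3 ± 9.07 CPM and Exc_14 at 18.7 ± 5.38 CPM (both n = 12). Every library held Drd1a UMIs in these 3 clusters. Exc_12 and Exc_13 carried some Bcl11b (59.1 and 51.6 CPM), a gene of deep subcortical projection neurons, and little of Foxp2, Syt6 or Etv1 (at most 12.2 CPM). A second group at 13.2 to 16.2 CPM held Exc_20 (16.2 ± 10.1, n = 8), Exc_21 (15.8 ± 6.90, n = 12), Exc_7 (15.4 ± 9.32, n = 9) and Exc_19 (13.2 ± 5.74, n = 12). Of these, Exc_19 and Exc_20 carried the layer 6 genes Foxp2 (151 and 172 CPM) and Syt6 (89.4 and 112 CPM), and Exc_21 carried the layer 5 genes Etv1 (705 CPM) and Tshz2 (2099 CPM). Exc_22 (9.03 CPM), Exc_25 (8.20 CPM), Exc_18 (8.12 CPM) and Exc_24 (5.70 CPM) were lower.

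The remaining excitatory clusters were near 0. Exc_11 had no Drd1a UMI in 399 P60 cells, which allows up to 0.684 CPM, and Exc_4, Exc_3 and Exc_5, with the layer 2 and 3 genes Cux2 and Calb1, were at 1.84, 1.61 and 1.596 CPM. Along the order of the 26 clusters, none of the 25 pairs of neighbours differed by more than the SD of their difference over shared libraries, and pairs further apart in the order were not compared. As counted, 23.0% of Exc_12 cells and 12.5% of Exc_19 cells held a Drd1a UMI, at median depths of 11498 and 12401 UMIs. In endothelial cells, which should lack the receptor, the share was 0.449% at a median depth of 4516 UMIs. After each cell was thinned to 2000 UMIs the shares were 4.35%, 2.46% and 0.168%. The level in inhibitory neurons came from 71 UMIs. In Inhib_9, a cluster with Vip, Drd1a was at 18.6 ± 16.5 CPM (n = 6) from 11 UMIs, a value that spans 0 to 41.2 CPM.

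**Figure D1:**
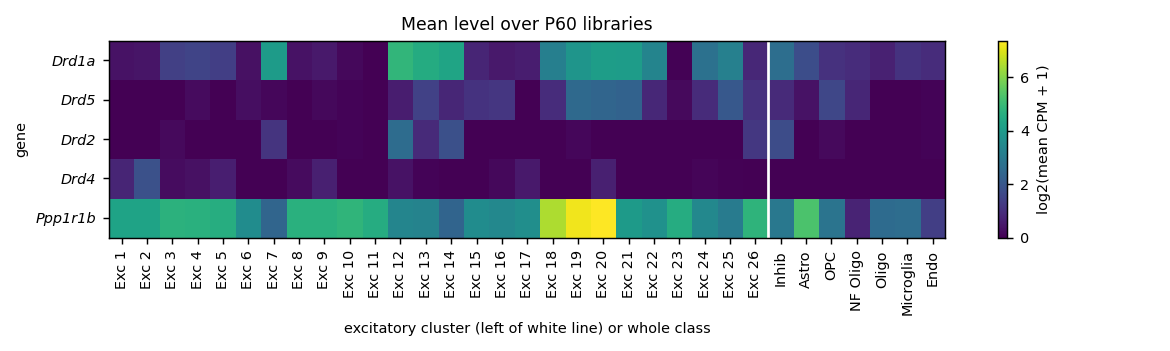
Mean level of the 5 detected genes over P60 libraries, as log2(mean CPM + 1), in 26 excitatory clusters and, right of the white line, in whole classes. Drd1a is bright in Exc_7, Exc_12 to Exc_14, Exc_18 to Exc_22 and Exc_25, while Ppp1r1b peaks in Exc_18 to Exc_20. Colours compare clusters within a gene, since capture at the 3' end differs between genes.

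Drd5, the other D1-class receptor, followed a narrower pattern. It was at 4.68 ± 2.72 CPM in Exc_19 (n = 12), 4.35 ± 4.22 CPM in Exc_20 (n = 8), 3.97 ± 4.13 CPM in Exc_21 (n = 12) and 3.05 ± 1.71 CPM in Exc_25 (n = 12). Exc_19 and Exc_25, which are 3.60% and 4.13% of the P60 cells, held 21.7% and 23.0% of its 230 UMIs. In Exc_12, the cluster highest in Drd1a, only 5 of 805 cells held a Drd5 UMI. All 25 neighbouring pairs of clusters were within their spread for Drd5 as well. Neighbours in a sorted order differ least, and the lowest clusters were all at 0 CPM, so this does not test whether clusters differ.

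The D2-class receptors were scarce. Drd2 gave 113 UMIs at P60, 40 of them in Exc_12 (5.03 ± 3.99 CPM, n = 12), 29 in Exc_14 (2.51 ± 2.24 CPM) and 22 in inhibitory neurons (2.30 ± 2.40 CPM, n = 12). Exc_12 and Exc_14 were thus also among the 3 clusters highest in Drd1a. Of the 34 Exc_12 cells with a Drd2 UMI, 14 also held a Drd1a UMI (41.2%), beside 23.0% of all Exc_12 cells. In Exc_14, 6 of 28 cells with a Drd2 UMI did (21.4%), beside 181 of all 750 cells. Over all excitatory neurons 26 of 82 cells with a Drd2 UMI did. These shares are as counted. A deeper cell is likelier to hold both UMIs, and depth was not held equal for this pair. Drd4 gave 38 UMIs at P60, all in excitatory neurons, and 12 of them in Exc_2 (2.53 ± 2.27 CPM, n = 12), a cluster with Cux2 at 152 CPM and Calb1 at 247 CPM. With so few UMIs, differences of Drd2 and Drd4 between other clusters were not detectable.

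Ppp1r1b, which encodes DARPP-32, was concentrated in the 3 clusters with layer 6 genes. It was at 164 ± 71.1 CPM in Exc_20 (n = 8; lowest 85.1, median 149, highest 277), 147 ± 60.2 CPM in Exc_19 (n = 12; lowest 79.8, median 138, highest 243) and 86.4 ± 32.9 CPM in Exc_18 (n = 7; lowest 32.7, median 94.9, highest 121). These clusters carried Foxp2 at 119 to 172 CPM and Tle4 at 145 to 205 CPM. The next, Exc_10, was at 27.4 ± 15.3 CPM, and the gap of Exc_18 to it (51.5 ± 26.1 CPM, higher in 7 of 7 shared libraries) exceeded its spread, as did the gap of Exc_19 to Exc_18 (54.8 ± 40.5 CPM, higher in 6 of 7). In all, 22 of 25 neighbouring pairs were within their spread. The lowest excitatory clusters were Exc_14 (4.15 ± 2.38 CPM) and Exc_7 (4.28 ± 3.12 CPM), both among the clusters high in Drd1a, and Exc_12 was at 9.32 ± 5.19 CPM.

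A Ppp1r1b UMI was found in 66.9% of Exc_19 cells and 69.1% of Exc_20 cells as counted and in 20.7% and 21.7% after thinning to 2000 UMIs, beside 0.673% and 0.196% of endothelial cells. Outside neurons, astrocytes were at 38.2 ± 28.9 CPM (n = 11), with a UMI in 12.1% of cells at a median depth of 3512 UMIs and in 6.35% after thinning. Endothelial cells were at 1.56 ± 1.59 CPM (n = 12). Inhibitory neurons were at 6.70 ± 5.47 CPM (n = 12).

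**Figure D2:**
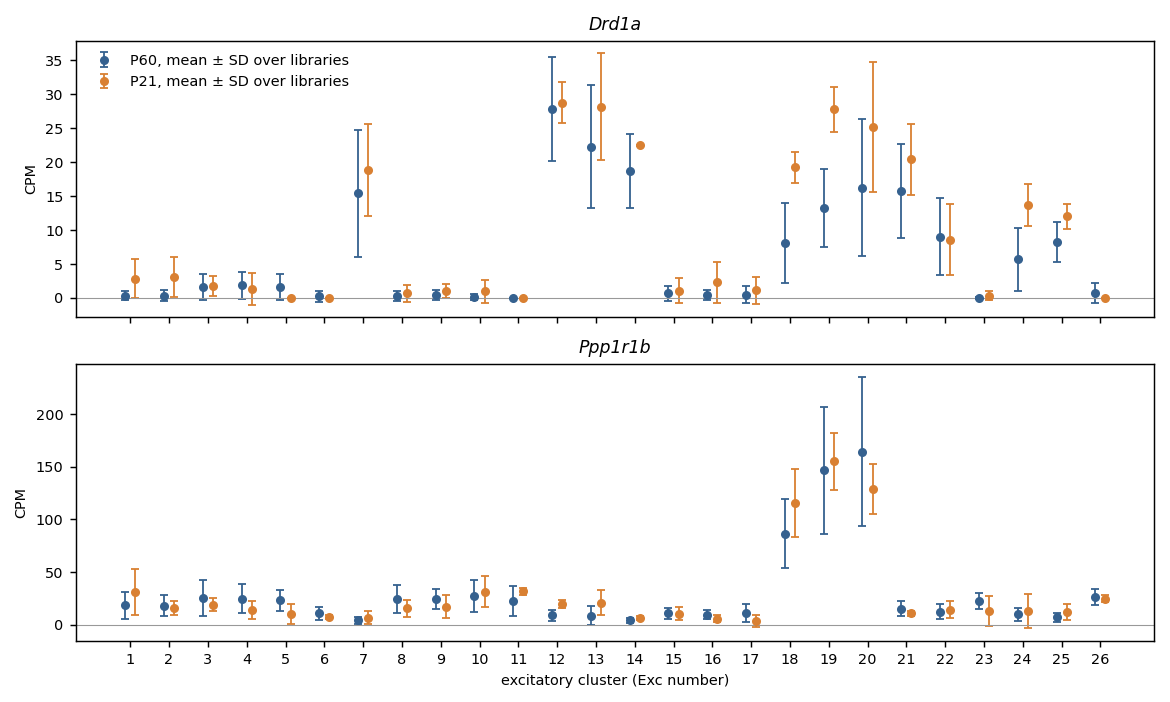
CPM of Drd1a (top) and Ppp1r1b (bottom) in each excitatory cluster at P60 (blue) and P21 (orange), with points for the mean and bars for the SD over libraries (clusters with at least 2 libraries). Drd1a reaches 27.8 CPM in Exc_12 at P60 where Ppp1r1b is at 9.32 CPM, and only Exc_18 to Exc_20 exceed 50 CPM of Ppp1r1b.

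Receptor and DARPP-32 thus overlapped in part. Over 33 neuronal clusters of at least 50 cells at P60, log2(CPM + 1) of Drd1a and Ppp1r1b had a Pearson correlation of -0.099, against 0.46 for Drd1a with Drd5 and 0.25 for Drd5 with Ppp1r1b (descriptions across clusters that share their libraries). In Exc_19, 78 of 112 cells with a Drd1a UMI (69.6%) also held a Ppp1r1b UMI, and 36 of 45 with a Drd5 UMI (80.0%) did, beside 66.9% of all Exc_19 cells. In Exc_12, 20 of 185 cells with a Drd1a UMI (10.8%) did, beside 9.44% of all Exc_12 cells. These shares are as counted, and for Drd5 with Ppp1r1b depth was not held equal. Within clusters, cells with a Drd1a UMI held a Ppp1r1b UMI more often by 2.77 ± 7.71 percentage points after thinning (SD, n = 12 P60 libraries, higher in 5 of 12), a difference that was not separated from 0 (two-sided exact sign-flip permutation test, p = 0.256). The mean rested on library 1, at 23.0 points from 4 cells with a Drd1a UMI: without it the difference was 0.93 ± 4.56 points (higher in 4 of 11, exact p = 0.512). It was 0.668 points as counted and 0.835 points after thinning to 1000 UMIs. The genes most like Drd1a across the 33 clusters, out of 10643 compared, were St3gal1 (r = 0.83), Clstn2 (0.81), Prdx3 (0.78), Hs6st2 (0.76) and Gm10116 (0.76). Grik3 (0.84), Gng12 (0.79), Ncoa7 (0.79), Gm10116 (0.79) and Map2k4 (0.77) were most like Drd5. Zfpm2 (0.85), Tmem111 (0.79), Matk (0.79), Ndrg3 (0.77) and Col5a1 (0.76) were most like Ppp1r1b.

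The comparison of P21 with P60 saline mice asks how these genes differ before and after adolescence. In the excitatory class Drd1a, Drd5 and Ppp1r1b were all higher at P21. Drd1a was at 9.29, 11.7 and 14.4 CPM in the 3 P21 libraries and at 5.58 to 8.49 CPM in the 6 P60 saline libraries (median 6.93), and the groups did not overlap. Its log2 fold change was 0.72 (SE 0.16), or 1.65-fold, with an adjusted p of 0.0031 by edgeR's quasi-likelihood test with Benjamini-Hochberg adjustment, which also gives the adjusted p values that follow. Drd5 was at 2.27, 1.71 and 1.89 CPM at P21 and 0.604 to 1.31 CPM at P60 (median 1.08), a log2 fold change of 0.84 (SE 0.23, adjusted p = 0.0115). Ppp1r1b was at 46.7, 36.1 and 32.6 CPM at P21 and 17.2 to 26.2 CPM at P60 (median 20.1), a log2 fold change of 0.86 (SE 0.13, adjusted p = 0.000228). For all 3 genes every P21 library lay above every P60 saline library. The share of all genes whose groups separate in this way was not computed. These 3 were called (adjusted p below 0.05 and more than 1.5-fold), where 19.3% of the 13245 genes tested were. Drd2, Drd4 and Drd3 did not pass the filter on low counts.

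Across genes of excitatory neurons, P21 libraries 2 and 3 were closer to each other (Pearson r = 0.996) than to library 1 (0.977 and 0.979). With P21 libraries 2 and 3 summed as 1, the log2 fold changes were 0.66 for Drd1a (adjusted p = 0.0128), 0.88 for Drd5 (0.0235) and 0.93 for Ppp1r1b (0.000595). All 3 stayed called. The cluster fits were not rerun with these libraries summed. Other choices ended a call. Drd5 was at 0.70 (adjusted p = 0.061) without P21 library 1, and Drd1a at 0.55 without P21 library 3, below 1.5-fold with an adjusted p of 0.0266. Against all 12 P60 libraries, Ppp1r1b was at 0.60 with an adjusted p of 0.0859, whereas Drd1a and Drd5 stayed called.

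**Figure D3:**
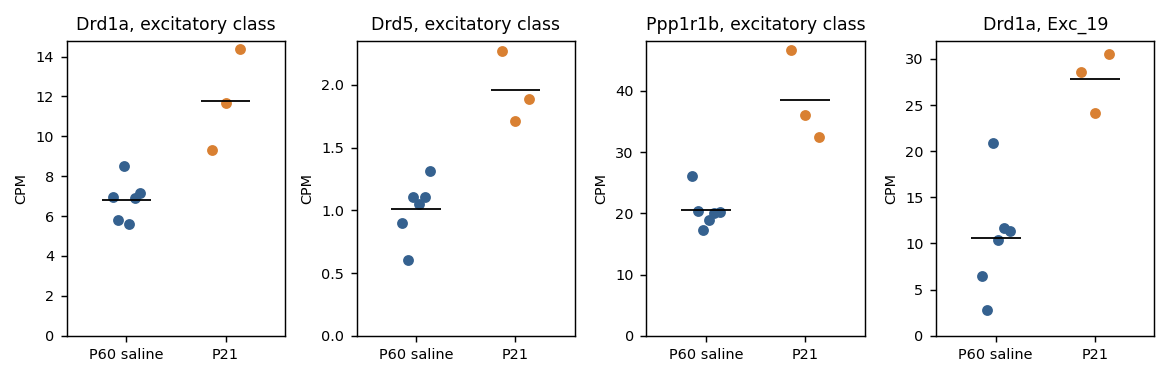
CPM per library in the 6 P60 saline (blue) and 3 P21 (orange) libraries, with black lines for means, for Drd1a, Drd5 and Ppp1r1b in the excitatory class and Drd1a in cluster Exc_19. P21 libraries lie above all P60 saline libraries in each panel, for Drd1a in Exc_19 at 24.2 to 30.6 against 2.79 to 20.9 CPM. The lowest P60 saline values in Exc_19 rest on few UMIs, and the share of all genes with such an order was not computed.

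The mixture of clusters within the class moved with age. Exc_18 to Exc_20 made up 21.8% to 22.7% of the excitatory neurons in P21 libraries and 5.74% to 12.7% in P60 saline libraries. Levels were therefore also computed with the cluster shares held at those of P60 saline, over the 14 clusters with enough cells in all 9 libraries, which hold 68.0% of the P60 saline excitatory neurons. Drd1a was then at 11.3 ± 0.818 CPM at P21 and 8.32 ± 0.941 CPM at P60, a difference of 0.41 on the log2(CPM + 1) scale (exact permutation test, two-sided, p = 0.0119, the smallest that 84 splits allow). Drd5 was at 1.77 ± 0.206 and 1.29 ± 0.285 CPM, a difference of 0.28 (p = 0.0595, exact permutation test), which the pseudocount of 1 shrinks at this level (log2 ratio of the means 0.45). Ppp1r1b was at 28.8 ± 6.53 and 25.1 ± 6.79 CPM, a difference of 0.21 (p = 0.464, exact permutation test). With a minimum of 5 cells or 1 cell in place of 10, which takes in 21 clusters (90.4% of the P60 saline excitatory neurons) or 25 (98.2%), Drd1a again had p = 0.0119, Ppp1r1b had p = 0.333 and 0.321, and Drd5 had p = 0.0476 and 0.0952 (exact permutation tests). The p of Drd5 thus fell on either side of 0.05 with the clusters taken. These tests count the 3 P21 libraries as independent, which libraries that share mice would not be.

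Within clusters, Drd1a passed the filter in 7 of 26 excitatory clusters, with a positive log2 fold change in 6. It was called in 1 of them, Exc_19, where 11.3% of all gene-by-cluster tests over the excitatory clusters were called. Drd1a in Exc_19 was at 28.6, 24.2 and 30.6 CPM at P21 and at 2.79 to 20.9 CPM in the P60 saline libraries (median 10.9), a log2 fold change of 1.21 (SE 0.28, adjusted p = 0.0030). The values of the maintenance saline libraries, with the lowest at 2.79 CPM, rest on 1 UMI each. The call held when each of the 9 libraries was left out in turn. Exc_18 and Exc_20 gave 0.85 and 0.82 (adjusted p = 0.279 and 0.341). In Exc_12, the P60 maximum, Drd1a was at 28.9, 31.7 and 25.7 CPM at P21 and 23.1 to 38.1 CPM in P60 saline, a log2 fold change of -0.21 (SE 0.25, adjusted p = 0.612). In Exc_14 it was at 22.4 to 22.5 CPM at P21, with a log2 fold change of 0.26 (adjusted p = 0.540).

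Ppp1r1b passed the filter in 12 clusters, with 7 positive and 5 negative log2 fold changes, and was called in Exc_18 alone. There it was at 138, 129 and 78.9 CPM at P21 and at 32.7, 53.8 and 94.9 CPM in the 3 P60 saline libraries with enough cells, so the groups overlapped. The log2 fold change was 1.04 (SE 0.30, adjusted p = 0.0464). The call was lost without P21 library 2 (1.00, adjusted p = 0.115), P60 library 7 (0.80, adjusted p = 0.212) or P60 library 11 (0.95, adjusted p = 0.272). In Exc_19 and Exc_20 the log2 fold changes were 0.39 (adjusted p = 0.267) and 0.23 (adjusted p = 0.577). In 4 clusters with Cux2 and Calb1, Exc_2, Exc_3, Exc_4 and Exc_9, they were -0.43, -0.34, -0.35 and -0.10, none of them called. In Exc_12, high in Drd1a, Ppp1r1b was 2.02-fold higher at P21 and not called. With no filter on low counts edgeR also called Exc_13 (2.14, adjusted p = 0.00084) and Exc_25 (0.86, adjusted p = 0.046).

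Among other classes, no gene of the 6 passed the filter in inhibitory neurons, where 14% of the genes tested were called, and Drd1a was at 5.58 to 8.56 CPM at P21 and 0 to 14.01 CPM in P60 saline. In astrocytes, where 1.11% of the genes tested were called, Ppp1r1b was at 23.9, 19.4 and 0 CPM at P21 and 11.3 to 58.7 CPM in the 5 P60 saline libraries tested, with a log2 fold change of -0.78 (SE 0.56, adjusted p = 0.598).

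Of 51 genes listed around these members (G proteins, cyclases, kinase and phosphatase subunits, phosphodiesterases, receptor regulators and dopamine handling), 47 were tested in excitatory neurons. At P21, 4 were higher and 2 lower, with a median log2 fold change of 0.14 over the list beside 0.00 over all genes tested. The 6 called of 47 are a smaller share than the 19.3% called over all genes, so the list did not stand out, and its called members are given as single genes. Ppp1r1a, inhibitor-1 and a relative of DARPP-32, was higher by 1.13 (SE 0.16, adjusted p = 0.000312). Prkar2b, a regulatory subunit of protein kinase A, was higher by 0.75, Ppp2ca, the catalytic subunit of phosphatase 2A, by 0.61 and Adcy1, a calcium-stimulated cyclase, by 0.60. Maob, which degrades monoamines, was lower (-0.95, SE 0.23, adjusted p = 0.00722), as was Pde1b, a calcium-activated phosphodiesterase (-0.62, SE 0.14). In inhibitory neurons 44 were tested, of which 5 were higher and 1 lower, close to the 14% called over all genes. There Ppp1r1a (1.16), Ppp1cc (1.08), a catalytic subunit of phosphatase 1, Prkacb (0.99), a catalytic subunit of protein kinase A, Rgs4 (0.90), a regulator of G protein signalling, and Ppp2ca (0.69) were higher and Pde4b (-1.25), a cAMP phosphodiesterase, was lower. In astrocytes 30 were tested and Ppp1r1a alone was called (1.95, SE 0.39, adjusted p = 0.0232).

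Cocaine was compared with saline within each period, in a fit of all 12 P60 libraries. In the excitatory class, with low counts filtered, none of the members was called in any period by edgeR. At maintenance and at 48 h no gene was called in that class (0% of 13171 tested), with 871 and 651 genes at an unadjusted p below 0.05, and DESeq2 called 1 and 3. With no filter on low counts edgeR called 40 and 59 of 19796 genes, no member among them. At 15 days 93 genes were called (0.706%), all higher after cocaine. The 2 saline libraries of that period differed from each other. Across genes of excitatory neurons, library 12 had a Pearson correlation of 0.9948 and 0.9949 with cocaine libraries 9 and 10, and of 0.9938 with saline library 11. Library 11 was further from libraries 9 and 10 (0.9886 and 0.9904). The part of library 11 in these calls was not tested separately from treatment. Drd1a at maintenance was at 6.86 and 11.5 CPM after cocaine and 6.94 and 5.80 CPM after saline (log2 fold change 0.53, SE 0.30, adjusted p = 0.789). At 48 h it was at 8.17 and 6.47 against 8.49 and 5.58 CPM (0.07, SE 0.26, adjusted p = 0.999), and at 15 days at 5.04 and 6.24 against 6.92 and 7.18 CPM (-0.28, SE 0.23, adjusted p = 1.0). The groups overlapped at maintenance and 48 h and not at 15 days, which 2 libraries a group can give without a difference. Drd5 gave 0.74 (SE 0.60), -0.78 (SE 0.50) and 0.29 (SE 0.32) in the 3 periods, with adjusted p from 0.848 to 1.0. Its 95% intervals span -0.53 to 2.01 at maintenance and -0.39 to 0.97 at 15 days, so a level 1.5-fold higher after cocaine lies inside both. At 48 h the interval was -1.85 to 0.29, which holds a level 1.5-fold lower and not one 1.5-fold higher. Leaving out each library of that period gave log2 fold changes from -1.72 to -0.36.

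Ppp1r1b at 15 days was at 33.5 and 44.3 CPM after cocaine and 20.1 and 20.2 CPM after saline. Both cocaine libraries were above every saline library of the 3 periods, whose highest value was 26.2 CPM. A maintenance cocaine library, at 29.3 CPM, was above them too, and the share of all genes with such an order was not computed. The log2 fold change was 1.00 (SE 0.28, 95% interval 0.37 to 1.63), with an adjusted p of 0.221 by edgeR's quasi-likelihood test (unadjusted p = 0.0055), so it was not called. DESeq2 gave 1.00 with an adjusted p of 0.0253, and edgeR with no filter on low counts gave 1.01 with an adjusted p of 6.5e-10. Both pass, so the call depended on the filter and on the tool. The unfiltered fit called 381 of 19796 genes in this period, where the main fit called 93 of 13171. Its adjusted p is therefore not to be read beside that of the main fit, and why it was so much lower was not tested. At maintenance Ppp1r1b was at 17.2 and 29.3 against 26.2 and 20.4 CPM (0.00, SE 0.34), and at 48 h at 13.01 and 26.2 against 17.2 and 18.975 CPM (0.12, SE 0.32). The difference between the maintenance and 15-day effects was -0.995 (SE 0.44, unadjusted p = 0.047, adjusted p = 0.654 by edgeR), so a period dependence was not called.

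**Figure D4:**
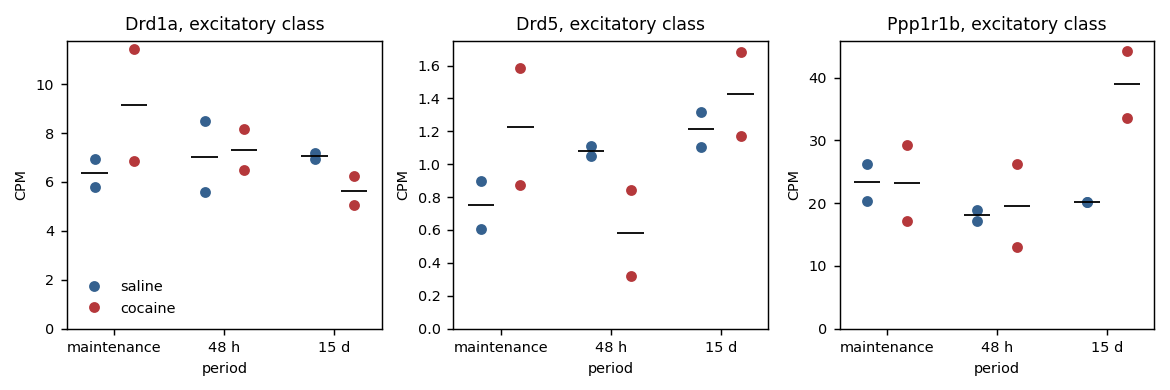
CPM per library of Drd1a, Drd5 and Ppp1r1b in the excitatory class for saline (blue) and cocaine (red) libraries in each period, with black lines for the mean of the 2 libraries. The 15-day cocaine libraries of Ppp1r1b (33.5 and 44.3 CPM) stand above the other P60 libraries, and the other groups overlap or lie close together.

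The same gene was then tested cluster by cluster at 15 days, where 1.24% of gene-by-cluster tests were called. Ppp1r1b passed the filter in 21 of 26 excitatory clusters, was higher after cocaine in 20 of them with a median log2 fold change of 0.89, and was called in 8. The filter asks for enough counts in only as many libraries as the smallest group holds. A cluster with low counts can thus enter through its cocaine libraries alone, so these counts lean towards higher values after cocaine. With no filter on low counts all 26 clusters were tested, 25 were higher after cocaine and 7 were called. In 16 of the 21 clusters both cocaine libraries lay above both saline libraries. With 2 libraries a group this order can arise without a difference, and its share over all genes was not computed. The 21 clusters all come from the same 4 libraries, so they do not replicate each other. Exc_19 was at 191 and 243 CPM after cocaine and 109 and 79.8 CPM after saline (log2 fold change 1.16, SE 0.19, adjusted p = 8.3e-05, edgeR). Exc_20 was at 192 and 252 against 94.3 and 85.1 CPM (1.34, SE 0.24, adjusted p = 2.3e-05). Exc_18, also with layer 6 genes, was at 120 and 121 against 53.8 and 94.9 CPM (0.90, SE 0.26, adjusted p = 0.165) and was not called.

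The other called clusters expressed less Ppp1r1b. Exc_4 was at 56.5 and 45.7 CPM after cocaine against 19.4 and 30.3 CPM, Exc_8 at 50.1 and 41.0 against 11.7 and 30.5 CPM, and Exc_10 at 58.8 and 42.0 against 24.1 and 37.2 CPM. Exc_11 was at 46.9 and 41.9 against 11.5 and 20.4 CPM, Exc_17 at 30.6 and 20.9 against 5.96 and 9.54 CPM, and Exc_22 at 24.1 and 21.7 against 5.96 and 10.5 CPM. Their log2 fold changes ran from 0.82 (Exc_10) to 1.75 (Exc_17). Leaving out each library of the period moved them most in Exc_8, from 0.63 to 1.99. The ranges were 0.49 to 1.12 in Exc_10, 0.73 to 1.37 in Exc_4 and 1.13 to 1.95 in Exc_11. They were 1.14 to 1.96 in Exc_22 and 1.43 to 2.11 in Exc_17. Without cocaine library 9, Exc_17 gave no value. When each of the 4 libraries of the period was left out, Exc_19 stayed called in 4 of 4 fits and Exc_20 in 3, with an adjusted p of 0.226 without library 10. The other 6 were lost without 2 or 3 of the libraries that could be left out. All 6 were lost without saline library 11, with adjusted p from 0.616 to 1.0.

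**Figure D5:**
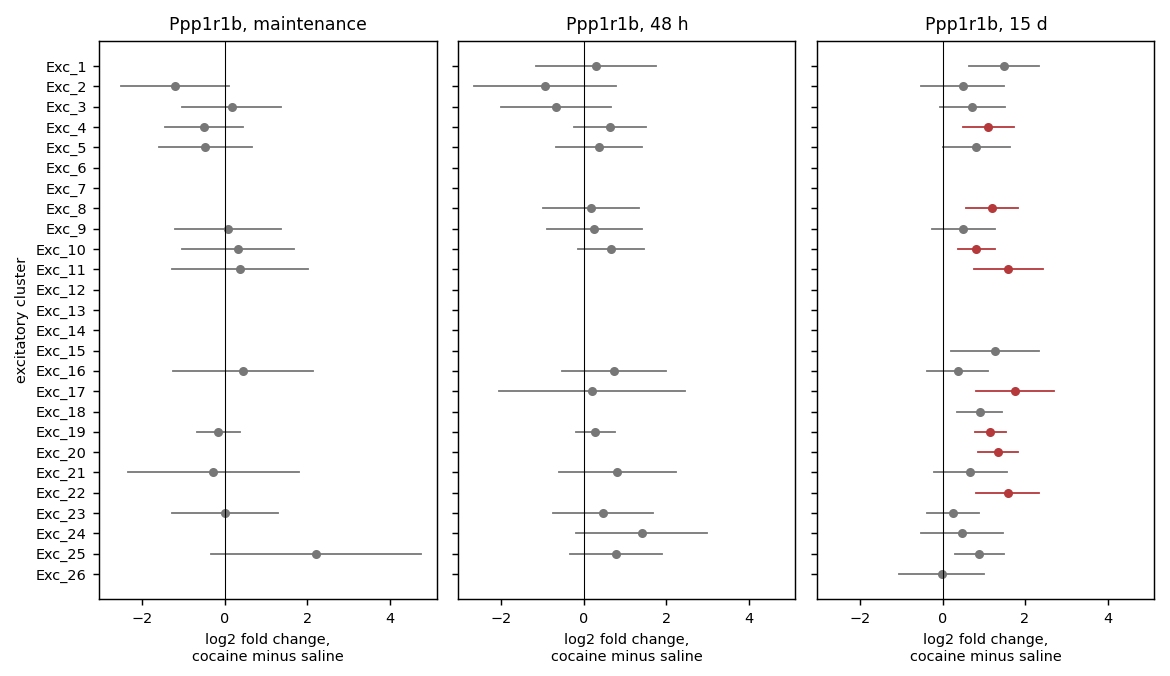
Log2 fold change of Ppp1r1b, cocaine minus saline, with its 95% interval in each tested excitatory cluster at maintenance, 48 h and 15 days of withdrawal. Red marks the 8 called clusters, all at 15 days, where 20 of 21 points lie above 0, against 7 of 12 at maintenance and 13 of 15 at 48 h.

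At 48 h Ppp1r1b passed the filter in 15 of 19 clusters, was higher in 13 and was called in none (0.00509% of gene-by-cluster tests called), and no test had an unadjusted p below 0.05. At maintenance it passed the filter in 12 of 15 clusters, was higher in 7 and was called in none (0.00647% called), again with no unadjusted p below 0.05. In Exc_19 the difference between the maintenance and 15-day effects was -1.32 (SE 0.32, unadjusted p = 0.00017, adjusted p = 0.280). None of the 61 tests of such differences for these genes passed adjustment, and 7 had an unadjusted p below 0.05.

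Other measures moved with the 15-day libraries. Endothelial cells held Ppp1r1b at 4.17 and 4.67 CPM in cocaine and 1.93 and 2.13 CPM in saline libraries of that period, from 4 to 8 UMIs each. Snap25, a neuronal transcript, was at 359 and 299 CPM in endothelial cells of the cocaine and 392 and 249 CPM in those of the saline libraries, and at 32.7 to 38.3 CPM in the maintenance libraries. The part of free neuronal RNA in the Ppp1r1b difference was not tested. Exc_18 to Exc_20 made up 5.23% and 12.97% of the excitatory neurons in the cocaine and 12.7% and 5.74% in the saline libraries. With the shares of all 26 clusters held fixed, Ppp1r1b was at 44.0 and 45.2 CPM after cocaine and 20.8 and 25.6 CPM after saline. The groups thus did not overlap with this mixture held fixed either, which 2 libraries a group can give without a difference. In astrocytes Ppp1r1b was at 54.5 and 112 CPM after cocaine and 32.2 and 58.7 CPM after saline (0.75, SE 0.35, adjusted p = 1.0).

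Drd1a in single excitatory clusters was called in no period, with 6 clusters tested at 15 days and 4 each at maintenance and 48 h. In Exc_12 it was at 19.4 and 17.3 CPM after cocaine and 31.2 and 36.2 CPM after saline at 15 days (-0.83, SE 0.32, unadjusted p = 0.0111, adjusted p = 0.394). In the same cluster it was at 20.9 and 19.9 against 37.4 and 25.9 CPM at 48 h (-0.68, SE 0.40, adjusted p = 0.998) and at 35.0 and 29.4 against 38.1 and 23.1 CPM at maintenance (0.11, SE 0.41, adjusted p = 0.990). The groups of Exc_12 did not overlap at 48 h and 15 days, and neither difference was called. With 2 libraries a group non-overlap can arise without a difference, and its share over all genes was not computed. In Exc_19 at maintenance Drd1a was at 13.02 and 19.8 CPM after cocaine and 6.46 and 2.79 CPM after saline, but from 2, 14, 1 and 1 UMIs (2.17, SE 0.93, unadjusted p = 0.0243, adjusted p = 0.931).

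In the inhibitory class no member passed the filter in any period. Of its clusters, Drd1a passed in Inhib_7 alone and was not called. It was at 0 and 0 CPM after cocaine and 0 and 12.2 CPM after saline at 48 h (adjusted p = 0.977), the last from 5 UMIs. At 15 days it was at 12.2 and 5.55 against 16.2 and 2.59 CPM (log2 fold change -0.19, SE 0.87, adjusted p = 1.0), so the groups overlapped. The share of genes called in that class was 0% at maintenance, 0.0115% at 48 h and 0.84% at 15 days. Inhibitory neurons numbered 19 to 218 in a P60 library, and Drd1a ranged from 0 to 14.01 CPM and Drd2 from 0 to 7.42 CPM, so differences of these sizes between treatments were not detectable. Of the 51 pathway genes, 46 were tested in excitatory and 44 in inhibitory neurons in each period, and none was called. Their median log2 fold change in excitatory neurons was -0.01, 0.00 and -0.03 in the 3 periods, beside 0.01, 0.00 and -0.01 over all genes tested. The P21 and 15-day comparisons share saline libraries 11 and 12. Ppp1r1b was therefore given with each comparison's own values: 0.86 at P21 and 1.00 after cocaine at 15 days in the class, 0.39 and 1.16 in Exc_19, and 0.23 and 1.34 in Exc_20.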

How the data were processed

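Per the labels and methods, droplet libraries of dissociated PFC were aligned by the authors to mm9 with Cell Ranger, and the deposited matrices hold raw UMI counts per gene and cell, without normalization. Classes and L2 clusters come from the deposited cell table, made by the authors with Seurat 2.1.0 (version from the submitters' processing notes). P21 cells were named there from their correlation with P60 clusters. Per the methods, likely doublets were removed by the authors, as cells with extreme numbers of detected genes and by inspection after clustering, and no doublet caller was run here. The members and lists were chosen with earlier results of these data known.

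In Python 3.11.15, genes of mitochondria (13) and of ribosomal proteins (143) were dropped, and UMIs were summed per library and cell type (10 cells or more, 2 libraries a group or more). These sums were tested in R 4.3.3 with edgeR 4.0.16 (filterByExpr, TMM scaling, robust quasi-likelihood tests). P-values were adjusted over all genes of a fit (Benjamini-Hochberg), and calls needed an adjusted p below 0.05 and over 1.5-fold. P21 was fitted with the 6 P60 saline libraries, and cocaine with all 12 P60 libraries as 6 groups. The fits were tested on simulated data. The 2 libraries of a treatment group limit precision, and p-values measure only the spread between these libraries. Since the methods pool 2 mice a sample and give 4 P21 mice, the 3 P21 libraries may share mice, and P21 p-values may then be too small. Levels across clusters are descriptions, since clusters were made from the same cells. A class level mixes clusters, and fewer cells with a transcript and fewer transcripts per cell are not separated in it. Shares of cells carry exact binomial counting error only. Named genes were the 6 members, called pathway genes, the 5 genes most correlated with each member of at least 200 UMIs, and listed markers. Alternatives included DESeq2 1.42.0 and leaving out each library. Gene positions follow the NCBIM37 annotation of the counts, and promoter windows follow RefSeq on GRCm38.p6.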

Additional observations from a re-analysis of the deposited data

Results flagged for a closer look

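One value stood apart within its group. Ppp1r1b in excitatory neurons was at 26.2 CPM in P60 saline library 2 (maintenance), and the other 5 P60 saline libraries lay between 17.2 and 20.4 CPM, so that the gap to its nearest neighbour took 0.644 of the range of the 6 libraries. It was the single such value in 38 groups of libraries examined in this way, where chance gives about 1 in 20. Without this library the P21 difference of Ppp1r1b was 0.92 on the log2 scale (adjusted p = 0.000221, edgeR's quasi-likelihood test).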

How the results depend on the processing

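Class differences between P21 and P60 saline kept their direction in every alternative run. With Bonferroni adjustment Drd1a (0.72), Drd5 (0.84) and Ppp1r1b (0.86, log2 scale) were not called. At fixed cluster shares the differences, there of log2(CPM + 1), were 0.41, 0.28 and 0.21 (log2 ratios of the means 0.45, 0.45 and 0.20) and under 1.5-fold, although Drd1a there had the smallest exact p the design allows. Against all 12 P60 libraries Ppp1r1b was not called (0.60). Leaving out each library gave 0.55 to 0.88 for Drd1a, 0.70 to 0.93 for Drd5 and 0.70 to 0.97 for Ppp1r1b. Summing P21 libraries 2 and 3 kept all 3 calls, with 2415 genes called. Genes called went from 2559 to 378 with Bonferroni and 5350 with no fold limit. Clusters with Ppp1r1b called went from 1 to 0 with at least 30 cells a library and 3 with no filter on counts.

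For cocaine at 15 days, Ppp1r1b in the class passed with no filter (1.01) and in DESeq2 (1.00), and ran from 0.77 to 1.20 when libraries were left out. The 93 genes called became 381 with no filter, 0 with Bonferroni, 162 in DESeq2 and 12 with the 4 libraries of the period, and 0 to 387 when a library was left out (0 without library 9 or 11, 16 without 10, 387 without 12). With at least 30 cells Ppp1r1b was called in 5 clusters in place of 8. Of these, Exc_4, Exc_8, Exc_19 and Exc_22 were called with both minimums and Exc_1 was added, while Exc_10 and Exc_17 were no longer called and Exc_20 and Exc_11 had too few libraries to be tested. Cocaine effects that were not called changed sign in places. With equal numbers of cells, Drd1a at 15 days was 0.044, and Ppp1r1b was -0.0024 at 48 h and -0.25 at maintenance. Ppp1r1b at maintenance was also -0.0026 with DESeq2 size factors, -0.013 in DESeq2 and -0.0056 with 4 libraries. Leaving out libraries gave -0.26 to 0.36 for Drd1a at 48 h, -0.00092 to 0.55 for Drd5 at 15 days, and -0.48 to 0.36 (maintenance) and -0.49 to 0.51 (48 h) for Ppp1r1b. In thinned P60 saline libraries the co-detection difference was -1.46 percentage points, higher in 0 of 6, and leaving out each P60 library gave 0.93 (without library 1) to 3.52 points. The cause of these shifts was not tested. Keeping cells with matching classes, the 15-day values at fixed shares and the cluster fits and co-detection without single libraries were chosen after seeing the data. Depth limits Drd2, Drd3 and Drd4, which gave at most 147 UMIs each, and Drd5 gave no value with equal cells. No paired analysis was possible because library numbers run through each age's series and groups share none.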
